A study of Mus musculus with 9 samples.

Results

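The 9 genes described here are Mocs3, Irf2bp1, Mgat2, Mblac1, Fjx1, Leng9, Fzd8, Dio3 and Fam58b. They are protein-coding genes made of a single exon, listed because their deposited values in oocytes without MTR4 stood far above those of wild-type (WT) oocytes in either compartment. They are 9 of the 23235 gene symbols in the table, and of 287 single-exon coding genes other than histones that reached 1 FPKM in some column. FPKM divides a gene's sequenced fragments by the length of its transcript and by the size of the library, so levels of different genes can be set side by side. Every annotated coding transcript of the 9 genes has 1 exon in GENCODE M21, an annotation of a later build than the one behind the FPKM.

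The study separated nuclei from cytoplasms of mouse oocytes at day 21 by micromanipulation and sequenced rRNA-depleted total RNA, with 10 nuclei or 10 cytoplasms in a sample. WT nuclei have 3 libraries in the labels, and the other groups (WT cytoplasms and both MTR4-null compartments) have 2 each, although the design text speaks of duplicates. The null genotype is labelled only as Mtr4-null, and its allele, the driver of any deletion and the strain are not given in the sources used here. The deposited table has 4 columns, 1 for each genotype and compartment, so every value is the authors' value for a whole group, with no spread between libraries. Where a pair of values is given, WT comes first and MTR4-null second. All differences therefore lack a replicate check, and no test, SD or p-value is given.

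MTR4 is a helicase of the nucleus that unwinds RNA and hands it to the RNA exosome for degradation, in complexes that recognise unprocessed, promoter-derived or retained polyadenylated transcripts. Transcripts of intronless genes are capped and polyadenylated but never spliced. They therefore lack the protein marks that splicing leaves on an mRNA, and they depend on other routes for nuclear export. A fully grown oocyte transcribes little and lives from stored RNA, which makes turnover a large part of what sets its RNA levels. The sample titles give the day but no growth stage, and neither transcription nor turnover was measured here.

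The ends of the genes are shown first, because polyadenylation separates these genes from replication-dependent histone genes, which are intronless too but normally end without a poly(A) tail. A poly(A) signal hexamer, AATAAA or ATTAAA on the sense strand, lay in the last 50 bases of the longest GENCODE M21 transcript of 8 of the 9 genes. The exception was Mocs3. The same was true of 78.4% of the 12920 coding genes kept, of 65.1% of 278 other single-exon coding genes, and of 25.9% of 58 histone genes of the Hist series. For 7 of the genes, 30 bases around the hexamer follow, 5′ to 3′, with the hexamer in capitals.
Irf2bp1: tgctgtgctctaATTAAAggtgtagtcgag
Mgat2: tctatttgtatcAATAAAggcattctagga
Mblac1: aggaccttcaaaAATAAAaatcgaccgcaa
Fjx1: aacttatatttcAATAAAagggagtttaaa
Leng9: aaaagtaacttaAATAAAcacacacacaga
Dio3: ttaagctacaatAATAAAgacttgaaggaa
Fam58b: aaaaattatgcaAATAAAatataggaaagg
The hexamer began 19 bases (Fzd8) to 32 bases (Irf2bp1) before the annotated end. A match is a description of the annotated letters, and where these RNAs ended in the oocytes was not measured here.

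The promoters of 4 genes are shown for their different surroundings. Mocs3 and Mgat2 each have a gene on the opposite strand that starts just upstream of their own start, Irf2bp1 stood highest in the MTR4-null cytoplasm, and Dio3 is an imprinted gene. The windows come from RefSeq on GRCm38.p6, not the mm9 build named for the FPKM, and run from 250 bases before the gene's start to 50 bases after it, 5′ to 3′ on the gene's strand. Capitals mark the words CCAAT, then GGGCGG, and lastly the TATAAA word, on either strand and with overlapping copies.
Mocs3 chr2:168230372-168230671 (+): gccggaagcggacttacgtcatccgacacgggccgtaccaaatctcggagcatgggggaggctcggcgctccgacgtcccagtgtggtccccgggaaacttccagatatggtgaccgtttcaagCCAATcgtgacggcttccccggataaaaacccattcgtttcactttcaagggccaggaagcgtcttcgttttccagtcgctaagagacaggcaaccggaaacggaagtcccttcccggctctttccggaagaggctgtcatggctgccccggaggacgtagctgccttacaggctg
Mgat2 chr12:69183908-69184207 (+): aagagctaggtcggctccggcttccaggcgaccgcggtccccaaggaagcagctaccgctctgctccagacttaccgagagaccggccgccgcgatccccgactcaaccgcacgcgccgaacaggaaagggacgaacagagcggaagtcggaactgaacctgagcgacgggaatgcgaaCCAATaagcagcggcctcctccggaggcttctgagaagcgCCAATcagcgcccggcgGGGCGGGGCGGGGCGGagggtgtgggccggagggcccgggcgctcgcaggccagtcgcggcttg
Irf2bp1 chr7:19003808-19004107 (+): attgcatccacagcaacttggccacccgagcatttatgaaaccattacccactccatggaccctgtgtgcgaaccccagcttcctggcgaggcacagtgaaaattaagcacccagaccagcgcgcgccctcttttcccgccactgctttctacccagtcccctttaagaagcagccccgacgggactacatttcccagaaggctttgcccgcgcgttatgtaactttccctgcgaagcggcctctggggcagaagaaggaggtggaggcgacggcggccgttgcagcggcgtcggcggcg
Dio3 chr12:110278980-110279279 (+): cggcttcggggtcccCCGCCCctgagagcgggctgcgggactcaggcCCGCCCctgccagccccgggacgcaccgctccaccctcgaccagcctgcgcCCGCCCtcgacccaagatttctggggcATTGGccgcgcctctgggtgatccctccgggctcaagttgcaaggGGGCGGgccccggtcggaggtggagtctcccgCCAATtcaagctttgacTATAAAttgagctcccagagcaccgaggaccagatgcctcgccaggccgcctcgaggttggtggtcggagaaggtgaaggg
Windows were found for 7 of the 9 genes. CCAAT, the box bound by NF-Y, was present in 4 of the 7 (Mocs3, Mgat2, Leng9 and Dio3), and in 37.4% of all 32851 windows of that length. GGGCGG, the GC box of Sp factors, was present in 3 (Mgat2, Leng9 and Dio3), against 35.7% of all windows but 54.2% of those of other single-exon coding genes and 62.1% of those of multi-exon genes. TATAAA was in Dio3 alone, against 13.6% of all windows. In the 7 windows no 2 different motifs overlapped, while the 3 copies of GGGCGG in Mgat2 overlapped each other. The ratio of observed to expected CpG ran from 0.592 in Mblac1 to 1.04 in Mgat2, with a median of 0.753 over the 7 windows against 0.677 over 214 windows of other single-exon genes and 0.751 over 10084 windows of multi-exon genes. No sequence feature searched was common to all 7 windows.

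The columns held oocyte RNA by their markers. All 12 oocyte markers were present in every column, with summed levels of 6595 to 10625 FPKM, while 12 granulosa cell markers summed to 43.2 to 80.5 FPKM and 8 blood and immune markers to 1.34 to 3.86 FPKM. Skiv2l2, the older symbol of the Mtr4 gene, was at 16.2 and 2.91 FPKM in nuclei, and 21.6 and 2.51 in cytoplasms. The part of granulosa RNA in the results was not tested. Of the 14270 genes that reached 1 FPKM in some column, 23.9% were above WT by 2-fold or more in MTR4-null nuclei and 12.3% were below by as much. The cytoplasm gave 15.0% above and 21.4% below. Differences are on the scale of log2(FPKM + 1), which understates those of low genes. Across all genes kept the median difference was 0.21 (nuclei) or -0.26 (cytoplasms), and rescaling to the sum without small RNA genes put these at 0.05 and 0.11. FPKM is relative to the size of its library, so these values do not give the amount of RNA per nucleus or cytoplasm. In pooled samples such as these, a change in some of the nuclei or cytoplasms cannot be told apart from a change in all.

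Each of the 9 genes exceeded WT by 2-fold or more in both compartments without MTR4. They were chosen on these values, so the count describes the choice, and nothing is read from it against the 9.59% of all genes that were that much higher in both. WT nuclei held them at 0.304 to 3.27 FPKM with a median of 1.34, and MTR4-null nuclei at 19.7 to 88.7 with a median of 32.9. WT cytoplasms held 0.209 to 5.96 FPKM and MTR4-null cytoplasms 9.30 to 93.1, with medians of 1.96 and 24.5. The lowest MTR4-null value of the group thus lay above the highest WT value in each compartment. Of the members, 3 were under 1 FPKM in the WT nucleus (Mblac1, Fjx1 and Fzd8) and 2 in the WT cytoplasm (Mblac1 and Fjx1).

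**Figure D1:**
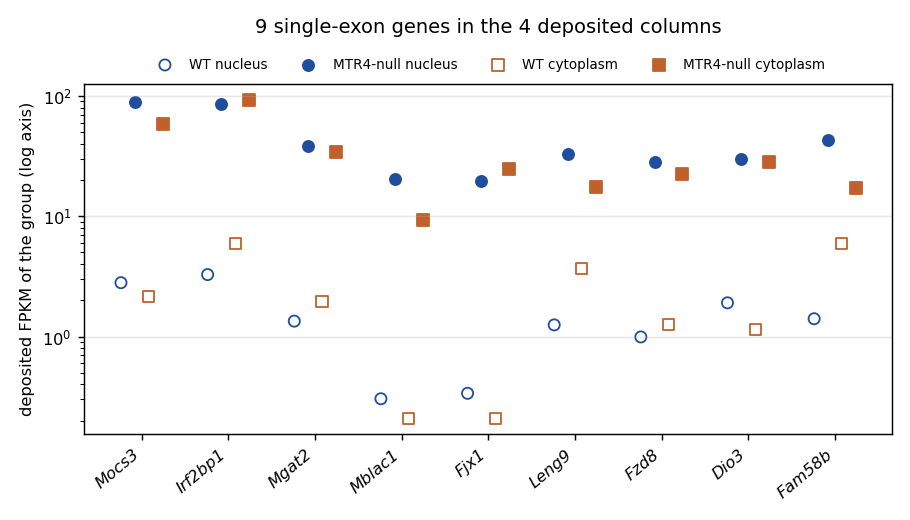
Deposited FPKM (vertical log axis) of the 9 genes (horizontal axis) in the 4 columns, with open symbols for WT, filled symbols for MTR4-null, circles for nucleus and squares for cytoplasm, 1 value per group. Filled symbols lie between 9.30 and 93.1 FPKM and open symbols between 0.209 and 5.96, and the open square of Fam58b lies closest to its filled one.

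Among the members that are enzymes of small molecules and glycans, Mocs3 had the largest nuclear difference. Mocs3 activates sulfur carriers for molybdenum cofactor synthesis and for thiolation of tRNA. It was at 2.802 and 88.7 FPKM in nuclei, and 2.15 and 58.5 in cytoplasms. Both compartments were thus low in WT and high in MTR4-null, by 4.56 in the nucleus and 4.24 in the cytoplasm on the log2 scale. Mgat2 encodes the Golgi N-acetylglucosaminyltransferase that opens the second branch of complex N-glycans. Its levels were 1.34 and 38.01 FPKM in nuclei, and 1.96 and 34.2 in cytoplasms. The differences were 4.06 and 3.57. On the opposite strand Mgat2 overlaps the gene model Gm49383, which was not analysed here. Dio3, the deiodinase that inactivates thyroid hormone, was at 1.91 and 29.7 FPKM in nuclei, and 1.15 and 27.99 in cytoplasms. Dio3 had the smallest nuclear difference of the 9, 3.40, and a cytoplasmic one of 3.75.

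Mblac1 encodes a protein of the metallo-beta-lactamase fold described as a nuclease of histone pre-mRNA. It was at 0.304 and 20.3 FPKM in nuclei, and 0.209 and 9.298 in cytoplasms. Its MTR4-null cytoplasmic level was the lowest of the 9, and its differences were 4.03 and 3.09. Leng9 is named for its place in the leukocyte receptor cluster. It was at 1.25 and 32.9 FPKM in nuclei, and 3.65 and 17.4 in cytoplasms, so that the nuclear difference of 3.91 exceeded the cytoplasmic one of 1.98. The 3′ end of Leng9 overlaps that of Leng8 on the opposite strand over 263 bases. Whether counting used the strand is not stated in these sources, so reads of the pair cannot be told apart there. The RNA-binding protein gene Leng8 was at 22.8 and 45.98 FPKM in nuclei, and 10.96 and 16.2 in cytoplasms.

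Irf2bp1 and Fam58b act on transcription and the cell cycle. Irf2bp1, a corepressor that binds IRF2, was at 3.27 and 85.02 FPKM in nuclei, and 5.95 and 93.1 in cytoplasms. The last of these was the highest level of any member in any column, and the differences were 4.33 and 3.76. Fam58b, called Ccnq in newer annotations, encodes a protein of the cyclin Q family, whose human member activates CDK10. It was at 1.41 and 42.98 FPKM in nuclei, and 5.96 and 17.1 in cytoplasms. Its difference was 4.19 in the nucleus and 1.38 in the cytoplasm, where its WT level was the highest of the 9. A pair of processed pseudogenes resembles Fam58b: Gm8342 with 92.5% identity over 757 bases and Gm9731 with 88.1% over 765. Gm9731 is listed at 0 in all 4 columns, and the assignment of reads between Fam58b and such copies is uncertain.

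The signalling members were the Wnt receptor gene Fzd8 and Fjx1. Fjx1 encodes the vertebrate relative of the Drosophila Golgi kinase four-jointed, which modifies Fat and Dachsous cadherins. It was at 0.337 and 19.7 FPKM in nuclei, and 0.209 and 24.5 in cytoplasms. Fjx1 had the largest cytoplasmic difference of the members, 4.40, above its nuclear one of 3.95. Fzd8 was at 0.992 and 28.5 FPKM in nuclei, and 1.27 and 22.4 in cytoplasms, with differences of 3.89 and 3.37.

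By level, Mocs3 and Irf2bp1 stood highest in the MTR4-null nucleus and Fjx1 and Mblac1 lowest. The step from Fam58b at 42.98 FPKM down to Mgat2 at 38.01, Leng9 at 32.9, Dio3 at 29.7 and Fzd8 at 28.5 was gradual. With no spread between libraries, the order of neighbours in this series cannot be judged. In the WT nucleus the order differed: Irf2bp1 and Mocs3 were again highest, followed by Dio3 at 1.91 FPKM and Fam58b at 1.41.

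The nucleus and the cytoplasm of each genotype were then compared, a contrast that the choice of members did not use, although it rests on the same 4 columns. Choosing genes with a large nuclear difference favours low values in the WT nucleus and high ones in the MTR4-null nucleus. The compartment counts of the members are therefore not independent of the choice, and the shares of all genes are given for description only. In WT, 0 of the 9 genes favoured the nucleus by 2-fold, against 12.4% of all genes. Leng9 and Fam58b were at least 2-fold lower there, with differences of -1.05 and -1.53, against 4.71% of all genes. With a pseudocount of 5 those values were -0.47 and -0.78, and rescaling without small RNA genes put Leng9 at -0.93. The other 7 lay between -0.70 (Irf2bp1) and 0.43 (Dio3), so their FPKM differed by less than 2-fold between the WT fractions.

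In MTR4-null oocytes Mblac1 and Fam58b favoured the nucleus by 2-fold or more, with differences of 1.05 and 1.28, against 17.0% of all genes, and 0 of the 9 favoured the cytoplasm that far, against 1.84%. Centring on the median of all genes brought these to 0.52 and 0.76, and 0 of the 9 then reached 2-fold. With quantile normalization Fjx1 favoured the cytoplasm, at -1.02. The other members lay between -0.30 (Fjx1) and 0.88 (Leng9). The nuclear genotype difference exceeded the cytoplasmic one by 2.81 for Fam58b and 1.93 for Leng9, a gap that 27.0% of all genes showed at 2-fold or more. This gap is made of the 2 differences on which the members were chosen, so nothing is read from it against that share. Fjx1 and Dio3 had larger differences in the cytoplasm, by 0.45 and 0.35, and the remaining 5 members had gaps of 0.32 (Mocs3) to 0.94 (Mblac1) towards the nucleus. These smaller gaps depended on the scaling. Rescaling without small RNA genes turned those of Mocs3 (-0.40), Mgat2 (-0.23), Irf2bp1 (-0.18) and Fzd8 (-0.17) towards the cytoplasm, and centring turned that of Mocs3 (-0.15). Leng9, Fam58b and Mblac1 kept a gap towards the nucleus in both.

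The edge of the list was as follows. Ranked by nuclear difference among the 287 single-exon genes, the members held places 3 to 10 and 13. Dio3, the last of them, had a nuclear difference of 3.40, and Exosc6, just outside at 3.38, was not listed. Exosc6 encodes a ring subunit of the exosome and was at 6.599 and 77.9 FPKM in nuclei, and 7.11 and 78.7 in cytoplasms. In the cytoplasm the members ranged from rank 2 (Fjx1) to 85 (Fam58b), with 76 of the 278 other single-exon genes at or above Fam58b. Off the list, 3 genes matched or exceeded the lowest member of each compartment, Dio3 in nuclei and Fam58b in cytoplasms: 2410016O06Rik, Junb and Gm5129. By the smaller of the 2 differences, 58 of the 278 were at or above Fam58b. On that measure Leng9 held rank 37 and Fam58b rank 67 of the 287. The list is therefore a selection from the upper end of its class by nuclear difference, and not all of it.

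**Figure D2:**
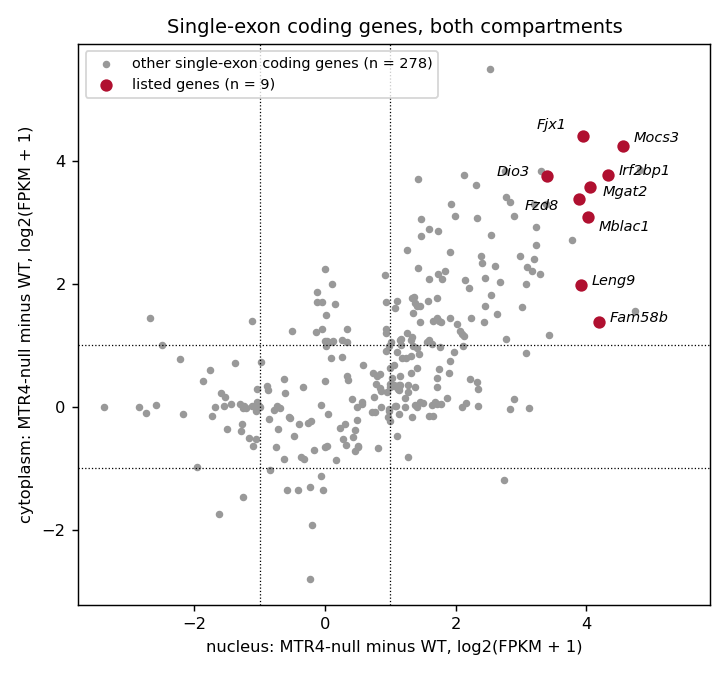
Difference between MTR4-null and WT in log2(FPKM + 1) for the nucleus (horizontal axis) and the cytoplasm (vertical axis), with the 9 listed genes in red, 278 other single-exon coding genes in grey and dotted lines at 2-fold. Leng9 and Fam58b sit below the other 7 members, which lie between 3.09 and 4.40 in the cytoplasm.

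The other single-exon coding genes, with the 9 and all histone genes left out, were taken as the class the members come from. Of 278 such genes, 143 (51.4%) passed 2-fold upward and 38 downward in MTR4-null nuclei, with a median difference of 1.05. Among all genes kept the share was 23.9% and the median 0.21. In the cytoplasm 106 (38.1%) were higher and 11 lower, with a median of 0.48, against 15.0% and -0.26 for all genes. Both compartments passed 2-fold upward for 82 of the 278 (29.5%), against 9.59% of all genes. At 8-fold in both compartments the numbers were 4 of 278, against 0.631% of all genes. These shares depend on the filter, since 1 FPKM in some column lets in genes through a high MTR4-null value. A gene under 1 FPKM in every column cannot reach 2-fold on this scale, so leaving out the filter adds genes but no calls. With no filter the same 143 single-exon and 2759 multi-exon genes passed upward in nuclei. They were then 15.9% of 899 and 14.4% of 19226 genes, and both medians were near 0 (0 and 0.0063). These lower shares come from the added low genes and do not bear on the genes kept. The unfiltered cytoplasmic shares were 11.8% and 8.19%. A filter on the WT columns alone was added after seeing the data. With it, 40.2% of 194 single-exon genes and 18.2% of 11587 multi-exon genes passed in nuclei, and 33.0% and 10.1% in cytoplasms. The nuclear medians were then 0.65 and 0.10.

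Among the 278, the 8 with the largest differences in both compartments were named at 5 FPKM or more in some column. 2410016O06Rik, now Riox1, encodes a nuclear oxygenase and was at 0.2103 and 33.4 FPKM in nuclei, and 0.6499 and 22.6 in cytoplasms. Jund, a subunit of the AP-1 transcription factor, was at 11.8 and 125 FPKM in nuclei, and 8.15 and 129 in cytoplasms. The third was Exosc6. Fahd1, an enzyme of mitochondria, was at 0.212 and 10.1 FPKM in nuclei, and 0.249 and 11.3 in cytoplasms. Hexim1, an inhibitor of the transcription elongation kinase P-TEFb, was at 1.73 and 17.6 FPKM in nuclei, and 0.128 and 10.99 in cytoplasms. The DNA-binding protein gene Purb, the exocyst gene Exoc8 and the gene model Gm9958 completed the set, with smaller-of-both differences of 2.83, 2.90 and 2.91. Each of these genes is intronless by the same rule as the members, and none is on the lists used here.

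Coding genes were next ordered by exon number, with the 9 members left out. The share 2-fold or more above WT in the nucleus fell from 51.4% with 1 exon to 34% with 2, 28.9% with 3 to 5, 24.1% with 6 to 10, 17.7% with 11 to 20 and 10.6% with 21 or more. In the cytoplasm the same classes gave 38.1%, 29.6%, 17.9%, 13.3%, 8.67% and 4.55%. The share at least 2-fold lower in the cytoplasm went the other way, from 3.96% with 1 exon to 31.2% with 21 or more. In the nucleus the lower share stayed between 10.6% and 14.3% in all 6 classes. The median nuclear difference went from 1.05 to -0.06 over the classes, and the cytoplasmic one from 0.48 to -0.63. The steps rest on genes that passed the filter. Unfiltered, the nuclear shares in the same order were 15.9%, 11.3%, 16.0%, 16.5%, 13.9% and 8.57%, with no steady fall. These hold the same calls over more genes, since a gene under 1 FPKM in every column cannot reach 2-fold. With the filter on WT columns alone they were 40.2%, 26.1%, 23.9%, 20.9%, 15.2% and 8.95%.

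**Figure D3:**
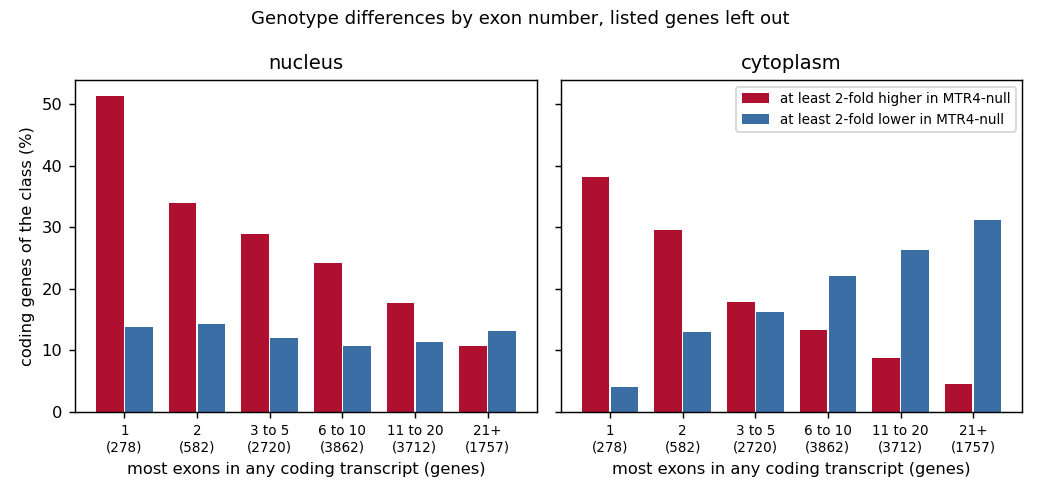
Share of coding genes with 1 FPKM in some column (vertical axis, percent) at least 2-fold higher (red) or lower (blue) in MTR4-null oocytes, for classes by the largest exon number of any coding transcript (horizontal axis, number of genes in brackets), in the nucleus (left) and cytoplasm (right). The red bars step down from 51.4% to 10.6% and from 38.1% to 4.55%, while the blue bars climb to 31.2% in the cytoplasm only.

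Spliced genes were also divided by whether their coding sequence lies in 1 exon, a comparison chosen after values were seen. With the coding sequence in 1 exon (495 genes) 32.5% were 2-fold or more above WT in nuclei and 25.5% in cytoplasms, and with it in several exons (12138 genes) 21.4% and 11.9%. Among genes of 2 exons the shares lay closer together. Of 286 such genes with the coding sequence in 1 exon, 32.9% passed 2-fold in nuclei and 28.7% in cytoplasms, and of 296 with 2 coding exons 35.1% and 30.4%. Their cytoplasmic medians were 0.12 and 0.49, the second close to the 0.48 of the single-exon class.

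Base composition, length and level move with exon number, and their values are given beside it. The members' longest transcripts had a GC content of 49.1% (Mgat2) to 63.6% (Irf2bp1), with a median of 57.8%, against medians of 52.2% for the other single-exon genes and 49.9% for multi-exon genes. Lengths ran from 1224 bases (Fam58b) to 5974 (Fzd8), with a median of 2460, against 1947 for other single-exon genes and 3066 for multi-exon ones. In 5 equal groups of the filtered coding genes by GC content the single-exon median lay above the multi-exon median in all 5, in both compartments. In the nucleus the single-exon medians ran from 0.03 in the group of lowest GC content to 1.4 in the highest, and the multi-exon medians from -0.09 to 0.57. In the cytoplasm they ran from 0.27 to 0.96 and from -0.52 to -0.03. The same held in 5 of 5 groups by transcript length and 5 of 5 by mean level over the 4 columns. The smallest of these single-exon groups held 13 genes. Mean level includes the MTR4-null columns, so the groups by level are not independent of the differences. None of these splits was repeated with the filter on WT columns alone. Whether exon number matters beyond these features was not tested. The part of GC content in the members' own differences was not tested.

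**Figure D4:**
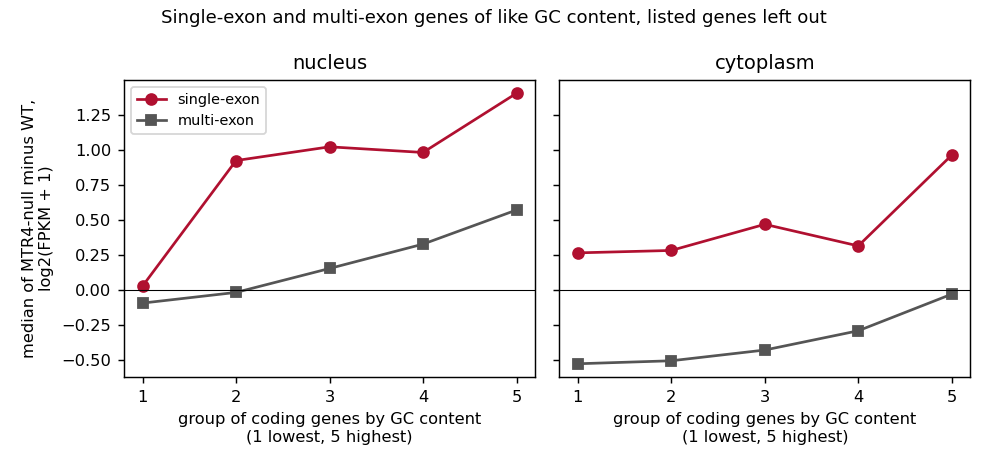
Median difference between MTR4-null and WT in log2(FPKM + 1) (vertical axis) of single-exon (red circles) and multi-exon (grey squares) coding genes in 5 equal groups by GC content (horizontal axis), in the nucleus (left) and cytoplasm (right), listed genes left out. All genes shown had reached 1 FPKM in some column. Red lies above grey in all 5 groups of both panels. The gap is least in the nucleus at the lowest GC content, with medians of 0.03 and -0.09.

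Chemosensory receptor genes, many of which are intronless too and are known mainly from sensory cells, show how little-used single-exon genes are listed. Of 213 single-exon receptor genes of the Olfr, Vmn, Tas2r and Taar series, 83.6% and 82.6% were listed at 0 in nuclei and 91.1% and 89.2% in cytoplasms. Their summed FPKM was 109 and 18.6 in nuclei, and 5.32 and 8.64 in cytoplasms. The bitter taste receptor gene Tas2r137 alone gave 25.4 FPKM of the WT nuclear sum. At least 1 FPKM was reached by 8, 5, 2 and 3 of them in the same order. The sums thus rest on few genes, and in the MTR4-null cytoplasm Taar9 gave 3.46 FPKM of the total. The median was 0 in every column.

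The coding genes next to the members were read in the same way. Neighbours were the nearest coding gene with listed FPKM on each side that does not overlap the member, and coding genes without FPKM were passed over. Some lay far off, such as Wac, 1283134 bases upstream of Fzd8. Of 18 neighbours, 15 were kept. In nuclei 1 of these was 2-fold or more above WT and 1 below, with a median of 0.29, against 23.9%, 12.3% and 0.21 for all genes. In the cytoplasm 2 were higher and 3 lower, with a median of -0.23, against 15.0%, 21.4% and -0.26. The neighbour higher in both was Dpm1, which encodes the catalytic subunit of dolichol-phosphate mannose synthase and starts 30 bases upstream of Mocs3 on the opposite strand, within the Mocs3 window printed above. Dpm1 was at 1.899 and 23.6 FPKM in nuclei, and 2.53 and 12.2 in cytoplasms. It has 9 exons in its longest form.

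Mgat2 has the same arrangement with the ribosomal protein gene Rpl36al, whose start lies 73 bases upstream on the opposite strand. Rpl36al was at 198 and 242 FPKM in nuclei, and 133 and 118 in cytoplasms, so this divergent pair differed between genotypes in Mgat2 alone at the 2-fold size. Upstream of Mblac1, 395 bases away on the same strand, Cnpy4 was at 77.7 and 88.7 FPKM in nuclei, and 96.4 and 81.98 in cytoplasms. Cdc42ep5, 885 bases upstream of Leng9 on the same strand, was at 1.01 and 1.61 FPKM in nuclei, and 0.329 and 3.804 in cytoplasms, the other neighbour at least 2-fold higher in the cytoplasm. Distances are those of GENCODE M21 on GRCm38.

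**Figure D5:**
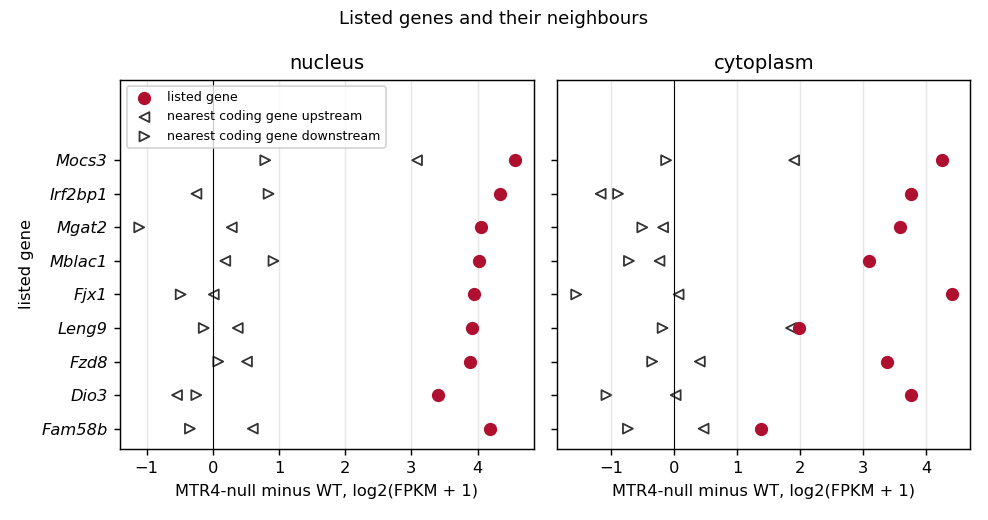
Difference between MTR4-null and WT in log2(FPKM + 1) (horizontal axis) for each listed gene (red) and its nearest coding gene upstream (left triangle) and downstream (right triangle), in the nucleus (left) and cytoplasm (right). Neighbours, the nearest coding genes with listed FPKM, lie at or below 0.92 in the nucleus except Dpm1, upstream of Mocs3, at 3.08.

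Paralogs of the members differed among themselves. In the Irf2bp family, Irf2bp2, which has 2 exons, was at 4.86 and 52.5 FPKM in nuclei, and 8.86 and 43.1 in cytoplasms. Irf2bpl, listed under its older symbol 6430527G18Rik and intronless, was at 0.1196 and 3.85 FPKM in nuclei, and 0.343 and 1.66 in cytoplasms. The transcription factor gene Irf1 was at 66.7 and 97.3 FPKM in nuclei, and 83.5 and 72.96 in cytoplasms, and Irf2 stayed under 0.1 FPKM in all columns.

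Among 10 genes of the Frizzled receptor list, 6 were kept. Of these 3 passed 2-fold upward in nuclei and 1 in cytoplasms, and 0 downward, with medians of 1.13 and 0.07. Among all genes 23.9% were higher and 12.3% lower in nuclei, and 15.0% and 21.4% in cytoplasms. Of the 3, Fzd10 (0 and 1.48 FPKM in nuclei) and Fzd2 (0.184 and 1.85) were kept only through their MTR4-null nuclear values. Fzd5, whose coding sequence lies in 1 of its 2 exons, exceeded Fzd8: it was at 2.28 and 60.9 FPKM in nuclei, and 1.49 and 109 in cytoplasms. The intronless Fzd7 was at 7.68 and 10.9 FPKM in nuclei, and 7.695 and 5.69 in cytoplasms, and the intronless Fzd1 was at 1.28 and 3.54 FPKM in nuclei, and 0.629 and 1.03 in cytoplasms. Having a single exon was thus shared by Frizzled genes with large and with small differences. Of 26 other genes of Wnt signalling, 7 were higher and 0 lower in nuclei, against 23.9% and 12.3% of all genes. In cytoplasms 3 were higher and 6 lower, against 15.0% and 21.4%. Dvl1, which relays the signal from Frizzled, was at 6.005 and 29.97 FPKM in nuclei, and 7.73 and 27.4 in cytoplasms.

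For the genes that act with the members, counts are small and are to be read against all genes, of which 23.9% were higher and 12.3% lower in nuclei and 15.0% and 21.4% in cytoplasms. Of 11 genes of molybdenum cofactor synthesis and tRNA thiolation, 3 were 2-fold or more higher and 2 lower in nuclei, with a median of -0.40, and 1 higher and 3 lower in the cytoplasm. Urm1, the sulfur carrier that Mocs3 activates, was at 1.66 and 13.3 FPKM in nuclei, and 3.78 and 6.59 in cytoplasms, while Gphn, which completes the cofactor, was at 18.4 and 6.31 FPKM in nuclei, and 14.8 and 2.35 in cytoplasms. Of 18 genes of complex N-glycan synthesis, 3 were higher and 1 lower in the nucleus and 2 higher and 3 lower in the cytoplasm. Mgat1, the enzyme that acts before Mgat2, was at 25.3 and 30.9 FPKM in nuclei, and 26.9 and 17.8 in cytoplasms. B4galt3, a galactosyltransferase, was at 2.94 and 23.4 FPKM in nuclei, and 1.69 and 24.8 in cytoplasms.

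Of 8 genes of thyroid hormone handling, 0 were higher and 2 lower in the nucleus, and 1 was higher and 1 lower in the cytoplasm. The activating deiodinase gene Dio2 was at 1.32 and 0.0408 FPKM in nuclei, and 0.374 and 0.194 in cytoplasms. The receptor gene Thrb was at 3.21 and 0.325 FPKM in nuclei, and 0.962 and 0.178 in cytoplasms. The gene higher in the cytoplasm was Crym, at 2.17 and 6.79 FPKM, and the lower one was Ncoa1, at 9.14 and 3.21. In the Dlk1-Dio3 imprinted domain 4 genes were kept. Dio3os, a noncoding RNA transcribed opposite Dio3, was at 0.308 and 9.32 FPKM in nuclei, and 0.352 and 11.3 in cytoplasms. The noncoding Meg3 was at 7.69 and 2.78 FPKM in nuclei, and 1.899 and 3.97 in cytoplasms. The large difference at this domain was thus seen for Dio3 and Dio3os and in the other direction for Meg3 in the nucleus.

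Of 15 proteins of the metallo-beta-lactamase fold other than Mblac1, 5 were higher and 1 lower in the nucleus and 2 higher and 2 lower in the cytoplasm. Dclre1c, the Artemis nuclease of DNA end joining, was at 16.8 and 80.9 FPKM in nuclei, and 2.79 and 84.03 in cytoplasms, and Mblac2 was at 0.685 and 0.9002 FPKM in nuclei, and 0.601 and 0.8096 in cytoplasms. Of 13 genes around Fat and Dachsous signalling, 4 were higher and 0 lower in the nucleus and 2 higher and 1 lower in the cytoplasm. Lats2, a kinase of the Hippo pathway, was at 0.451 and 6.73 FPKM in nuclei, and 0.828 and 6.02 in cytoplasms. Of 10 cyclin and kinase genes listed with Fam58b, 3 were higher and 1 lower in the nucleus and 1 higher and 2 lower in the cytoplasm. Cdk10 itself was at 3.94 and 12.02 FPKM in nuclei, and 6.36 and 4.199 in cytoplasms. In the Leng locus 0 of 8 genes were at least 2-fold apart in the nucleus, and 1 was higher and 1 lower in the cytoplasm.

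The 5 genes whose 4 values lay nearest to the members' median profile, by Euclidean distance in log2(FPKM + 1) over the 4 columns, were 2810013P06Rik, Gm11190, Bag5, Zfp622 and Fam109a, at distances of 0.20 to 0.64. 2810013P06Rik is annotated as a single-exon noncoding RNA from a bidirectional promoter and was at 1.46 and 29.3 FPKM in nuclei, and 1.91 and 26.2 in cytoplasms. Bag5, which encodes a cochaperone of Hsp70, and Fam109a have their coding sequence in 1 exon of a spliced transcript. Zfp622 is spliced through 6 exons and was at 0.873 and 38.01 FPKM in nuclei, and 1.11 and 24.1 in cytoplasms. The profile of the members is therefore found among spliced and noncoding genes as well.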

How the data were processed

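The authors deposited 1 table of FPKM with 23235 gene symbols and 4 columns, 1 for each genotype and compartment. Per the submitters' processing notes, mm9, TopHat2 2.1.1 and Cufflinks 2.2.1 were used, with no settings stated. No source used here states how libraries were combined into a column. The planned model over libraries was not used, because it needs a column for each library. The depth behind the values is unknown. A row without a gene name, equal to the sum of the others and so 50% of all values, was left out.

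Genes with at least 1 FPKM in some column were kept, 14270 in all. Differences were taken on log2(FPKM + 1) and counted at 2-fold, after the counting had been tested on simulated data. Exon number, GC content and length came from GENCODE M21 by symbol or older symbol, which matched 97.5% of the genes. Near-identical transcripts were sought with BLAST 2.17.0 at 85% identity over 150 bases, and tables were made with pandas 2.3.3. Named genes were all members, up to 3 genes of each list by size, paralogs, nearest neighbours, the 8 largest other single-exon genes and the 5 nearest profiles. Junb, Gm5129, Tas2r137 and Taar9 were named after their values were seen. The members and lists were chosen with earlier results of these data known.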

Additional observations from a re-analysis of the deposited data

How the results depend on the processing

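Pseudocounts of 0.1 and 5, no filter, a filter at 5 FPKM, centring on the median of all genes, quantile normalization, rescaling without small RNA genes and, chosen after seeing the data, single exons judged from the longest transcript and a filter on the WT columns alone were tried. Under these 9 alternatives the 162 values of the members' genotype differences ran from 1.01 to 6.31. The members were chosen on these differences, so this range describes the choice. The filters and the exon rule cannot change a member's own value, so under those settings the main values are only repeated. The filter on WT columns would keep only 7 of the 9 members. Mblac1 and Fjx1 fall below it, and their values are nevertheless among the 162. The count of members favouring the MTR4-null nucleus over its cytoplasm by 2-fold, 2, went to 1 with a pseudocount of 5, and to 0 with centring, quantile normalization and rescaling. A pseudocount of 5 lowered the number of other single-exon genes past 2-fold from 143 to 75 (nuclei) and from 106 to 56 (cytoplasms), since a larger pseudocount shrinks differences of low genes by construction. The filter on WT columns gave 78 and 64 of fewer genes tested. Without a filter the counts stayed at 143 and 106, because a gene under 1 FPKM in every column cannot reach 2-fold on log2(FPKM + 1). The shares in nuclei fell to 15.9% of single-exon and 14.4% of multi-exon genes, with medians of 0 and 0.0063, through the low genes added. With the filter on WT columns the nuclear medians were 0.65 and 0.10. No paired analysis was possible because the table has no column for single libraries, and for the same reason no library could be left out. Depth and the spread between libraries are unknown, which limits every value here.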
